A study of Mus musculus with 6 samples.

Results

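The genes described here are the expressed genes at the far end of mouse chromosome 2 (mm10). They were chosen as the rows of the deposited count table on chromosome 2 that start between 177759288 and 181870830 and that hold at least 10 counts in at least 3 libraries. Sox18, Gata5 and the collagen and laminin genes of the stretch were left out by name. Of 55487 rows in the whole table, 112 start in this window of 4.11 Mb. Of these, 60 are members, 5 were left out by name and 47 hold too few counts. The stretch was singled out because its genes were mostly lower in Ts1Cje than in wild-type, so the members were chosen by the log2 fold change between the genotypes. Their values are therefore given as a description, with no test. The members were separated into 47 protein-coding genes outside the zinc finger cluster (called the coding members below), 6 rows of a zinc finger cluster at the start of the window, 1 Gm gene model outside that cluster and 6 other noncoding rows.

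The Ts1Cje libraries came from embryonic stem cells of Ts1Cje mice, and the wild-type libraries from embryonic stem cells of wild-type mice, with 3 libraries each. Both sets were cultured with LIF and serum replacement and then treated alike for 4 days toward primitive macrophage progenitors, with VEGF, activin A, BMP-4 and FGF2 in the medium. The study asked how gene expression at this stage goes with the low number of microglia in Ts1Cje embryos. Ts1Cje mice model Down syndrome: part of the far end of chromosome 16 is present in triplicate, with the additional copy joined to another chromosome. The labels number the samples of each genotype as lots and name no separate line, clone or animal. Genotype and the stem cell line it came from therefore cannot be told apart.

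The window covers many mouse genes whose human counterparts also lie together at the end of a chromosome arm. Many of them are housekeeping genes: a ribosomal protein, proteasome subunits, a splicing factor, general transcription and chromatin factors and proteins of Golgi and vesicle traffic. Zinc finger genes of the mouse often sit in tandem clusters that arose by duplication, and many encode DNA-binding repressors that recruit the corepressor Trim28 to transposable elements. Primitive macrophage progenitors are the yolk sac cells that give rise to microglia.

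Start regions of some members are shown first, and not all of these members were lower in Ts1Cje. They are neighbours that share 1 promoter region, abundant genes that were lower, a gene that was higher and the repeated genes of the cluster. They come from RefSeq (GRCm38.p6), whose promoter table held 44 of the 60 members. The search covered 4 motifs on both strands, GGGCGG (the GC box), CCGGAA (an ETS core), CCAAT and TATAAA. Capitals mark each match, and neighbouring copies of a motif may run together. In RefSeq 5 pairs of a gene on the minus strand and a gene on the plus strand start next to each other. For the 3 pairs whose genes do not overlap in the deposited coordinates, the bases between their start sites are given on the plus strand, at chr2:178414464-178414533, chr2:180042465-180042482 and chr2:180710000-180710225.
Ppp1r3d to Fam217b: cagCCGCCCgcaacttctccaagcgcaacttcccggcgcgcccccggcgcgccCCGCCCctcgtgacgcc
Psma7 to Ss18l1: ggcgtcagggggacgtgc
Dido1 to Gid8: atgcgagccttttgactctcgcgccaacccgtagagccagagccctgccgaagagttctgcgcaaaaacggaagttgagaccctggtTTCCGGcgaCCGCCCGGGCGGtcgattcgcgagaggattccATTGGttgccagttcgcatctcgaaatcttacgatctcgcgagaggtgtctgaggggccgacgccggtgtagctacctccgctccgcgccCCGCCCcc
The next 3 are the 120 bases before the start site, on the gene's own strand, of Rps21 (chr2:180257259-180257378, plus), Ogfr (chr2:180589287-180589406, plus) and Birc7 (chr2:180928903-180929022, plus).
Rps21: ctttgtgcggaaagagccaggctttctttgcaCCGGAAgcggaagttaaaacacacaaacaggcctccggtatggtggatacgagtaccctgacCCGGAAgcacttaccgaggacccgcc
Ogfr: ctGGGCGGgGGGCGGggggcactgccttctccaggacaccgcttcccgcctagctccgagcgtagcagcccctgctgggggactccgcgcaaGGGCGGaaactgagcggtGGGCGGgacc
Birc7: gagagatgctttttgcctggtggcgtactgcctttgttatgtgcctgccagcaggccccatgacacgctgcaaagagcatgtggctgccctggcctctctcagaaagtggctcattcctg
The last 4 are the same stretch for the cluster genes Zfp971 (chr2:178023164-178023283, plus), Zfp931 (chr2:178078426-178078545, minus), Gm14325 (chr2:177840337-177840456, minus) and Gm14326 (chr2:177957289-177957408, minus).
Zfp971: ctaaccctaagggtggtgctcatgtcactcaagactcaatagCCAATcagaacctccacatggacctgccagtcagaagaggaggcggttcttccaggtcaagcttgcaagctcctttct
Zfp931: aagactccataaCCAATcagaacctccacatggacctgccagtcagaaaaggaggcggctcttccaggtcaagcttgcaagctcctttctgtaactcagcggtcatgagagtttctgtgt
Gm14325: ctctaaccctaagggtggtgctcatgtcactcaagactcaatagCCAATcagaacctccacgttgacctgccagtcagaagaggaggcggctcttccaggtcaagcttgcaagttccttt
Gm14326: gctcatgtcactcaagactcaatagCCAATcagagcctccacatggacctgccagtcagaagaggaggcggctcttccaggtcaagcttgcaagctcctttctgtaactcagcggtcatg
Over windows of 300 bases, 250 before and 50 after the start, the 36 coding members in the table held a median of 28 CpG dinucleotides (range 1 to 47), against 7 over all 27025 genes of the table. GGGCGG was present in 28 of the 36 (77.8%, against 35.9% of all genes), CCGGAA in 10 (27.8%, against 15.2%), CCAAT in 17 (47.2%, against 37.9%) and TATAAA in 0 (against 14.2%). The 36 are coding genes that met the count rule, whereas the 27025 were not filtered by counts or type, so these sets are unlike. The 5 cluster genes in the table looked unlike the coding members. Their windows held a median of 4 CpG dinucleotides, each had CCAAT and none had GGGCGG. Across their 10 pairs the windows were 78.9% to 95.4% identical. For 4 coding members the RefSeq start lies over 1000 bases from the start in the deposited table.

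Library totals were 16577065 to 19010856 counts in Ts1Cje and 18459721 to 18587516 counts in wild-type. Of all rows, 17315 were tested between the genotypes with edgeR's quasi-likelihood test, and all 60 members were among them. The threshold was a Benjamini-Hochberg adjusted p of 0.05. With it 20.5% of tested genes were called lower in Ts1Cje and 23.3% higher, 43.8% in all. Wild-type replicate 1 differed most from its group: the chi-square over degrees of freedom was 14.5 and 18.4 against the other wild-type libraries, and 4.81 between those 2. Among markers of the labelled cell, Kit and Csf1r were detected in every library, whereas Ptprc, Cx3cr1 and Fcgr1 were at 0 counts in all 6 and Spi1, Itgam, Adgre1 and Lyz2 did not exceed 6 counts in any. The summed level of the 9 markers was 165 to 207 CPM in Ts1Cje and 51.6 to 89.2 CPM in wild-type. Most of this sum was Kit, with 147, 165 and 186 CPM in the Ts1Cje libraries and 35.4, 68.5 and 75.3 CPM in the wild-type libraries. Csf1r averaged 18.1 CPM in Ts1Cje and 14.3 CPM in wild-type and did not pass the threshold. All 5 hemogenic endothelium markers fell, to a summed 47.4 to 134 CPM in Ts1Cje, against 560 to 640.2 CPM in wild-type. All 4 endoderm markers rose, with 369.8 to 537 CPM in Ts1Cje and 30.8 to 35.2 CPM in wild-type. Of 7 tested neuron markers 2 rose (38.7 to 50.9 CPM in Ts1Cje, 20.2 to 36.7 CPM in wild-type), and of 4 tested feeder fibroblast markers 3 fell (9.75 to 11.3 CPM in Ts1Cje, 23.4 to 65.5 CPM in wild-type). None of the endothelium, endoderm, neuron or fibroblast markers was at 0 in every library. The part of these markers' cell types in the values of chromosome 2 was not tested. In bulk RNA, fewer cells of a type and less RNA per cell cannot be told apart.

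The 47 coding members had a median log2 fold change of −0.86 (Ts1Cje over wild-type; quartiles −1.16 and −0.19), which is a 0.551-fold level. Over all 17315 tested genes the median was −0.01 (quartiles −0.31 and 0.42). The 6 cluster rows had a median of −0.49 (range −0.79 to −0.07) and the 6 other noncoding rows −0.39. Gm14292, the Gm gene model outside the cluster, stood at −0.12. The 1272 tested genes of chromosome 2 before the window had a median of −0.03, and the 45 in the 5 Mb next to it 0.00 (quartiles −0.44 and 0.33). In bins of 5 Mb along the rest of the chromosome that hold at least 20 tested genes, the median lay between −0.37 and 0.36.

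**Figure D1:**
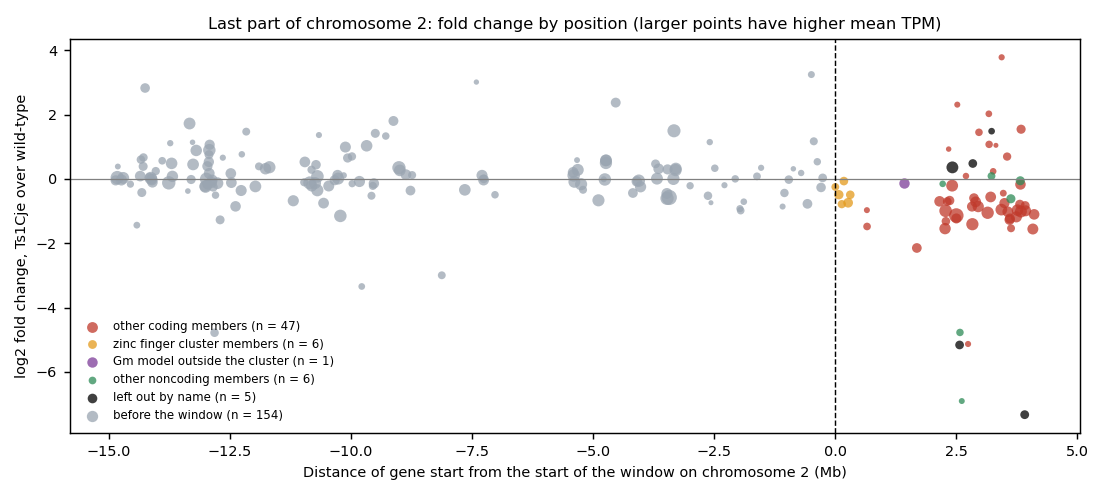
Log2 fold change (Ts1Cje over wild-type) against the distance of each gene's start from the start of the window, in Mb, for tested genes in the last part of chromosome 2. Each point is a gene, its size grows with mean TPM and its colour gives the class. The larger red points right of the dashed line, the abundant coding members, lie mostly between −0.5 and −1.5, and the grey genes left of it scatter around 0.

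By the threshold above, 36 of the 60 members were called lower and 5 higher, beside 20.5% and 23.3% of all genes. The contrast chose the members, so nothing is read from these counts. Among coding members the calls were 32 lower, 5 higher and 10 neither. In the cluster 1 of 6 was called lower. The CPM of the genotypes did not overlap for 39 members that were lower and 6 that were higher, beside 26.4% and 28.8% of all genes. Without wild-type replicate 1 the coding median was −0.86 and 35 members were called lower. The number of members called higher was 9 without wild-type replicate 1 and 3 without wild-type replicate 2 or 3.

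The shift was even across libraries. For each member and library, the log2 CPM was set against that gene's wild-type mean, and the median was taken over the coding members. This median was −0.87, −0.83 and −0.85 in the Ts1Cje libraries, against 0.01, 0.00 and −0.02 in the wild-type libraries. Averaged over libraries it was −0.85 ± 0.02 for the Ts1Cje cells and 0.00 ± 0.02 for the wild-type cells (SD over 3 libraries each), so the libraries of a genotype lay within 0.04 of each other. The same median over all tested genes lay between 0.00 and 0.01 in every library. Summed over the 47 coding members, expression was 1192, 1184 and 1134 CPM in the Ts1Cje libraries, against 2242, 2230.0 and 2258 CPM in the wild-type libraries. No Ts1Cje library overlapped the wild-type ones in either measure.

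**Figure D2:**
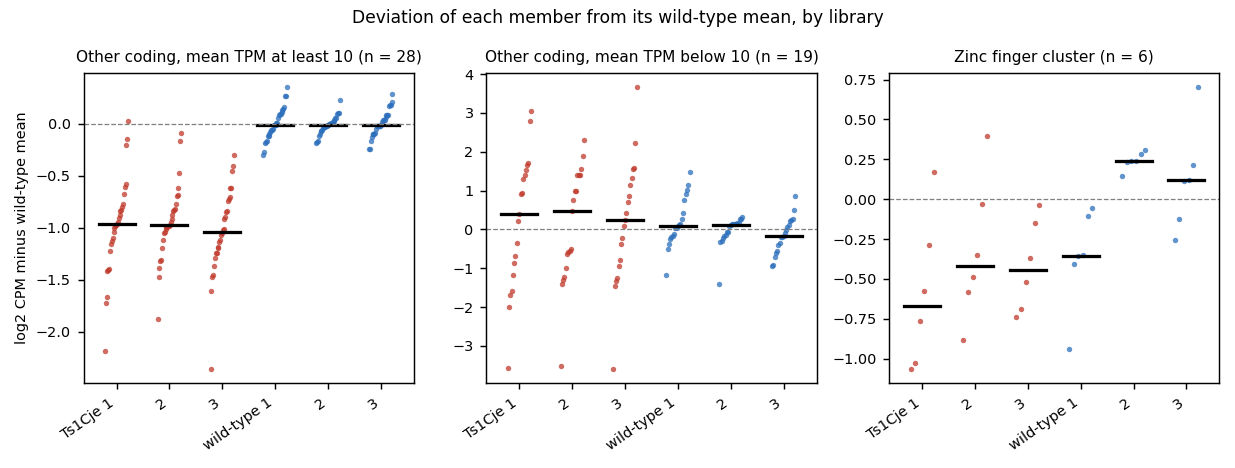
Deviation of each member from its own wild-type mean (log2 CPM), by library, with Ts1Cje libraries in red and wild-type libraries in blue; each point is a gene and the black bar is the median. The 28 abundant coding members sit near −1 in all 3 Ts1Cje libraries, the 19 less abundant ones scatter on both sides of 0, and wild-type replicate 1 is low for the cluster.

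The abundant coding members all had negative values. The 28 coding members with a mean of at least 10 TPM, a limit set after the data were seen, had library medians of −0.97, −0.98 and −1.04 in Ts1Cje, against −0.01 in each wild-type library. Of these 28 genes, 27, 28 and 28 were below their wild-type mean in the Ts1Cje libraries. Their median log2 fold change was −0.99, a 0.503-fold level, with quartiles of −1.19 and −0.74. The interquartile range was 0.45, beside 0.53 over the 10477 tested genes of that abundance, whose median was −0.03. Over the 788 of these on chromosome 2 before the window it was 0.48. The values of 23 of the 28 (82.1%) lay between −1.5 and −0.5, against 9.19% of all genes at that level. That band lies around the members' own median, and the members were chosen by this contrast. Nothing is therefore read from these shares or from the interquartile range. Cdh4, Pcmtd2 and Lsm14b were lower than this band, and Adrm1 and Zfp512b stood above it. The median SD of a gene's log2 CPM between libraries was 0.13 in Ts1Cje and 0.11 in wild-type, well under the shift.

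The 19 coding members with a mean below 10 TPM lay on both sides of 0. Their median log2 fold change was 0.24, with quartiles of −0.90 and 1.26, and the range ran from the receptor gene Ntsr1, near 0 in Ts1Cje, to 3.78 for Ptk6. The 6838 tested genes below 10 TPM had a median of 0.08, with quartiles of −0.42 and 0.79. Of the 19 members 5 were called higher and 6 lower, beside 1615 and 990 of those 6838 genes. Nothing is read from these counts. Every coding member called higher was in this set, but Lama5, left out by name, was called higher at a mean of 73.7 TPM. The summed level of these 19 genes was 58.4, 58.8 and 58.5 CPM in the Ts1Cje libraries, against 74.1, 78.7 and 76.8 CPM in the wild-type libraries. Across the 47 coding members, Spearman's rho of the fold change was −0.45 with mean TPM, 0.06 with start position and −0.16 with gene span. These points share libraries and are given as a description. Within the 28 abundant members rho was −0.18 with mean TPM, −0.05 with position and 0.03 with span.

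**Figure D3:**
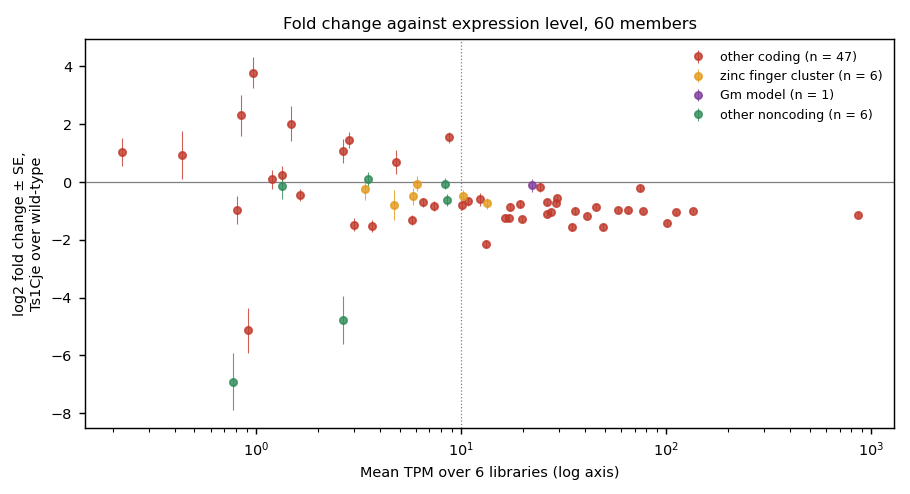
Log2 fold change (Ts1Cje over wild-type, ± SE) against the mean TPM over the 6 libraries on a log axis, for the 60 members, coloured by class. Right of the dotted line at 10 TPM most coding members lie in a band around −1, and left of it they spread from below −5 to almost 4. The fitted values of B230312C02Rik and Ntsr1, with 0 and 3 counts in Ts1Cje, depend on the prior count of the fit.

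The 10 members of RNA handling, protein synthesis and protein breakdown were the most abundant role group and had a median log2 fold change of −1.0 (9 called lower, 1 neither). Rps21, a protein of the small ribosomal subunit, had 522, 549 and 543 TPM in the Ts1Cje libraries, against 1071, 1159 and 1296 TPM in the wild-type libraries. The genotypes did not overlap, and the level was 0.455-fold (log2 fold change −1.14 ± 0.08 SE). About 10.5% of its 50-base stretches also occur in transcripts of other genes, so some reads may belong to other genes. Psma7, a subunit of the outer ring of the proteasome core, had 92.2, 92.3 and 86.3 TPM in the Ts1Cje libraries, against 184, 179.6 and 172 TPM in the wild-type libraries. Every Ts1Cje library was below every wild-type one and the spread within a genotype was small (−0.99 ± 0.06). Prpf6, which bridges the parts of the spliceosome, had 52.2, 50.9 and 50.9 TPM in the Ts1Cje libraries, against 101, 105 and 103 TPM in the wild-type libraries. Libraries of a genotype differed by less than 5 TPM and the level was 0.495-fold (−1.01 ± 0.06).

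Ythdf1, a reader of methylated adenosine in mRNA, had 74.6, 75.6 and 68.2 TPM in the Ts1Cje libraries, against 159.5, 154 and 137 TPM in the wild-type libraries. The groups were apart, at a 0.482-fold level (−1.05 ± 0.07). Lsm14b, an RNA-binding protein of messenger storage granules, had 22.6, 26.4 and 26.3 TPM in the Ts1Cje libraries, against 61.2, 75.1 and 81.6 TPM in the wild-type libraries. It was lower than most, at 0.343-fold (−1.55 ± 0.13), with wild-type replicate 1 the lowest of the wild-type libraries. Pcmtd2, whose product carries a protein methyltransferase domain, had 15.4, 21 and 16.8 TPM in the Ts1Cje libraries, against 42.6, 60.2 and 52.5 TPM in the wild-type libraries. Its groups did not overlap either, and wild-type replicate 1 was again the lowest wild-type library (−1.56 ± 0.15). Gid8, a subunit of the CTLH ubiquitin ligase, had 32.4, 33.5 and 31.0 TPM in the Ts1Cje libraries, against 60.2, 58.6 and 56.3 TPM in the wild-type libraries. Its libraries were tight in both genotypes (−0.86 ± 0.08).

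Adrm1, the ubiquitin receptor of the proteasome cap, had the smallest shift of this role group. It had 70.8, 71.7 and 64.4 TPM in the Ts1Cje libraries, against 90.7, 75.7 and 72.0 TPM in the wild-type libraries. The groups were separated by under 1 TPM and the log2 fold change was −0.21 ± 0.09. The nearest members on either side of Adrm1 are Osbpl2 (−0.67 ± 0.14) and Rps21. Lama5, left out by name, starts between Adrm1 and Rps21 and was higher (0.36 ± 0.09). Of the 50-base stretches of Adrm1, 25.7% also occur in transcripts of other genes. The group's other 2 genes were Mtg2, a GTPase of the mitochondrial ribosome (−0.70 ± 0.15), and Uckl1, a uridine kinase-like protein (−0.79 ± 0.16).

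**Figure D4:**
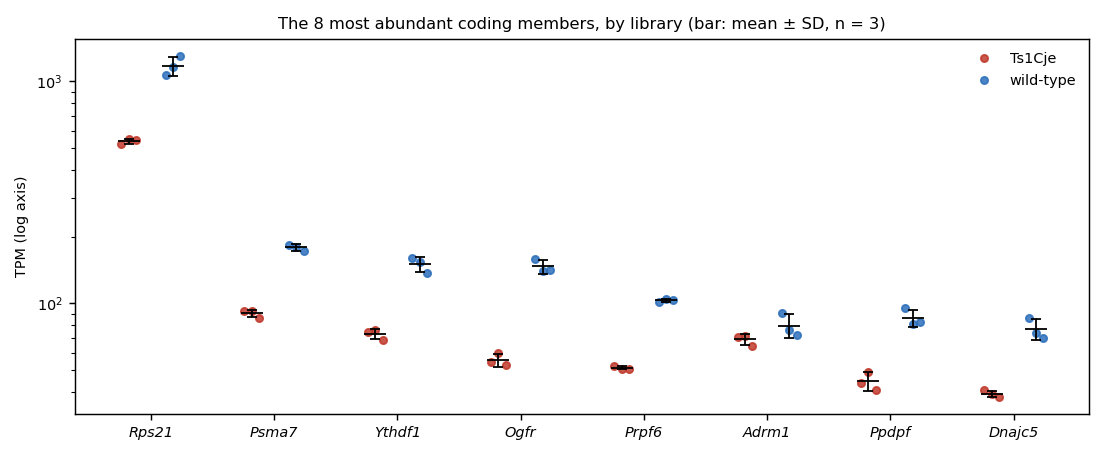
TPM in each library on a log axis for the 8 coding members with the highest mean TPM, with Ts1Cje in red left of wild-type in blue; bars give mean ± SD over 3 libraries. All Ts1Cje points lie below the wild-type points of the same gene, with a narrow gap for Adrm1 only.

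All 12 members of transcription and chromatin had negative values, with a median of −0.79 (10 called lower, 2 neither). Taf4, a scaffold of the general transcription factor TFIID, had 18.7, 20.3 and 21 TPM in the Ts1Cje libraries, against 29.0, 34.4 and 33.4 TPM in the wild-type libraries. Its groups did not overlap, at 0.617-fold (−0.70 ± 0.10). Mrgbp, a subunit of the NuA4/TIP60 acetyltransferase complex, had 11.1, 13.9 and 11.8 TPM in the Ts1Cje libraries, against 22.4, 23.9 and 20.2 TPM in the wild-type libraries. This was a 0.551-fold level with separate groups (−0.86 ± 0.12). Ss18l1, a subunit of the BAF remodelling complex best known in neurons, had 3.5, 3.46 and 2.92 TPM in the Ts1Cje libraries, against 8.51, 9.03 and 6.97 TPM in the wild-type libraries. It was lower in every Ts1Cje library (−1.32 ± 0.17). Zbtb46, a transcription factor of dendritic cells and endothelium, had 1.32, 2.06 and 2.27 TPM in the Ts1Cje libraries, against 4.82, 5.96 and 5.48 TPM in the wild-type libraries. It was among the 6 coding members with the lowest fold changes (−1.54 ± 0.21).

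The other members of this group were Dido1, a chromatin-binding protein (−0.71 ± 0.08), Rtel1, a helicase of telomere upkeep (−1.02 ± 0.10), Zgpat, a zinc finger and G-patch protein (−1.23 ± 0.11), Tcea2, an elongation factor of the TFIIS family (−0.83 ± 0.18), Gmeb2, a DNA-binding modulator of glucocorticoid responses (−0.75 ± 0.14), and Tcfl5, a helix-loop-helix factor known from testis (−0.60 ± 0.22). Their genotypes did not overlap, but the gap was small for Tcfl5, whose highest Ts1Cje and lowest wild-type libraries had 12.5 and 12.6 TPM. Helz2, a coactivator with a helicase domain, stood at −0.44 ± 0.21 with under 3 TPM in every library. Zfp512b, a zinc finger protein, had 25.7, 24.3 and 18.6 TPM in the Ts1Cje libraries, against 31.3, 24.9 and 20.9 TPM in the wild-type libraries. Its groups overlapped and its value was −0.17 ± 0.16. Zfp512b overlaps Prpf6, Uckl1 and Uckl1os in the deposited coordinates, and the strand setting of the counting is not given in the sources used here.

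Among the 6 members of membrane traffic, lipid handling and cytoskeleton the median was −0.82 (5 called lower, 1 neither). Dnajc5, the cysteine string chaperone of secretory vesicles, had 40.6, 39.1 and 38.1 TPM in the Ts1Cje libraries, against 86.4, 73.6 and 70.1 TPM in the wild-type libraries. All Ts1Cje libraries were lower, at 0.510-fold (−0.97 ± 0.08). Tpd52l2, a vesicle traffic protein, averaged 25.3 ± 1.17 TPM in Ts1Cje and 56.9 ± 1.45 TPM in wild-type (SD, n = 3 each; −1.18 ± 0.07). Arfrp1, a GTPase of the Golgi, averaged 11.6 ± 0.747 TPM in Ts1Cje and 27.9 ± 1.89 TPM in wild-type (−1.27 ± 0.11). Osbpl2, a lipid transfer protein, and Arfgap1, which switches off the GTPase Arf at the Golgi, stood closer to 0 (−0.67 ± 0.14 and −0.56 ± 0.09). Stmn3, a microtubule destabiliser of neurons, had 6.47, 6.87 and 4.47 TPM in the Ts1Cje libraries, against 5.79, 3.68 and 1.51 TPM in the wild-type libraries. Its groups overlapped (0.69 ± 0.43), and it was 1 of the low-abundance members.

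The 8 members of signalling and survival split by abundance. Ogfr, the opioid growth factor receptor, had 54.4, 59.8 and 52.8 TPM in the Ts1Cje libraries, against 159, 140.1 and 142 TPM in the wild-type libraries. Among the 8 most abundant coding members it had the lowest level relative to wild-type, at 0.377-fold (−1.41 ± 0.08). Ppdpf, named as a factor of pancreatic progenitors, had 43.7, 49.3 and 40.9 TPM in the Ts1Cje libraries, against 95, 80.5 and 82.8 TPM in the wild-type libraries. Its groups did not overlap (−0.95 ± 0.11), and 17.6% of its 50-base stretches occur elsewhere. Rgs19, which shortens G protein signals, averaged 24.2 ± 2.51 TPM in Ts1Cje and 47.9 ± 4.86 TPM in wild-type (−0.99 ± 0.13). Cables2, a protein that binds cyclin-dependent kinases, averaged 10.3 ± 2.03 TPM in Ts1Cje and 23.9 ± 1.08 TPM in wild-type (−1.23 ± 0.14). Ppp1r3d, which targets protein phosphatase to glycogen, was near 1 TPM and overlapped between genotypes (−0.97 ± 0.49).

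Ptk6, an intracellular tyrosine kinase of epithelia, was the coding member with the highest fold change. It had 36, 19 and 59 counts in the Ts1Cje libraries, against 3, 3 and 2 counts in the wild-type libraries. No wild-type library came near the Ts1Cje ones, and the log2 fold change was 3.78 ± 0.54. Rbbp8nl, named for its likeness to the DNA repair gene Rbbp8, had 32, 10 and 13 counts in the Ts1Cje libraries, against 8, 2 and 1 counts in the wild-type libraries. The groups were separated by only 2 counts, with Ts1Cje replicate 1 far above the other libraries (2.31 ± 0.72). Its log2 fold change was 1.65 without Ts1Cje replicate 1 and 3.52 without wild-type replicate 1. Birc7, an inhibitor of apoptosis, had 17, 18 and 26 counts in the Ts1Cje libraries, against 11, 3 and 1 counts in the wild-type libraries. Its groups did not overlap, and the wild-type counts were highest in replicate 1 (2.02 ± 0.62). Without wild-type replicate 1 its log2 fold change was 3.29, and without wild-type replicate 3 it was 1.55. Ptk6 and Rbbp8nl met the count rule in Ts1Cje libraries only, so they had to be higher there.

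The 8 channels, receptors, transporters and adhesion genes had a positive median, 0.58, and low levels (2 called lower, 1 higher). Cdh4, the retinal cadherin of cell adhesion, was the only one above 10 TPM on average, with 4.65, 5.94 and 4.17 TPM in the Ts1Cje libraries, against 21.9, 19.2 and 23.8 TPM in the wild-type libraries. The groups were far apart, at 0.226-fold (−2.15 ± 0.14). Ntsr1, the neurotensin receptor, had 1, 1 and 1 counts in the Ts1Cje libraries, against 14, 43 and 63 counts in the wild-type libraries. Summed over the libraries this was 3 against 120 counts, a 38.8-fold lower level in Ts1Cje, with a 95% exact interval of 13.0 to 191 that covers counting error only. Ntsr1 met the count rule in wild-type libraries only, so it had to be lower in Ts1Cje. Slc17a9, a transporter that loads nucleotides into vesicles, had 4.92, 4.14 and 3.38 TPM in the Ts1Cje libraries, against 1.67, 1.8 and 1.07 TPM in the wild-type libraries. It was higher in every Ts1Cje library (1.45 ± 0.28).

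Nkain4, a partner of the sodium pump, had 3.25, 2.99 and 4.50 TPM in the Ts1Cje libraries, against 2.29, 1.83 and 0.971 TPM in the wild-type libraries. It too was higher without overlap (1.07 ± 0.41). The histamine receptor gene Hrh3, the nicotinic receptor gene Chrna4 and the anion transporter gene Slco4a1 stayed under 2 TPM in every library and overlapped between genotypes (0.93, 0.24 and 0.09).

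Of the 3 coding members outside these role groups, Polr3k, a subunit of RNA polymerase III and the last gene of the window, averaged 16.8 ± 2.00 TPM in Ts1Cje and 35.8 ± 1.26 TPM in wild-type (−1.10 ± 0.11). Fam217b had 1.30, 1.75 and 1.71 TPM in the Ts1Cje libraries, against 3.74, 4.82 and 4.64 TPM in the wild-type libraries. Its groups did not overlap (−1.48 ± 0.23). Samd10, named for its SAM domain, went the other way, with 11.9, 13.5 and 13.5 TPM in the Ts1Cje libraries, against 4.65, 4.84 and 3.79 TPM in the wild-type libraries. Each Ts1Cje library was above each wild-type one, at 2.92-fold (1.54 ± 0.18), although the gene lies inside Prpf6 on the opposite strand.

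The part of the zinc finger cluster inside the window had a median log2 fold change nearer to 0 than the 47 coding members. It also had a low level, with a median of 5.96 TPM. Its library medians were −0.67, −0.42 and −0.44 in Ts1Cje, against −0.36, 0.24 and 0.12 in wild-type, so wild-type replicate 1 lay near the Ts1Cje libraries. The median SD of log2 CPM between libraries was 0.39 in Ts1Cje and 0.31 in wild-type. Over the 19 coding members below 10 TPM it was 0.27 in Ts1Cje and 0.35 in wild-type, and their median log2 fold change, 0.24, was nearer to 0 still. Without wild-type replicate 1 the cluster's median log2 fold change was −0.60. The difference between the cluster and the coding members was not tested.

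Zfp971 had 10.9, 9.0 and 10.2 TPM in the Ts1Cje libraries, against 13.1, 18.3 and 18.7 TPM in the wild-type libraries. Its groups did not overlap, and it was the 1 cluster row called lower (−0.74 ± 0.19). Gm14325 had 6.82, 7.97 and 10.7 TPM in the Ts1Cje libraries, against 11.2, 13.9 and 10.5 TPM in the wild-type libraries. Here the highest Ts1Cje library and the lowest wild-type library were almost level on the TPM scale (−0.49 ± 0.23). Zfp931 had 3.20, 4.84 and 6.55 TPM in the Ts1Cje libraries, against 5.33, 7.96 and 7.11 TPM in the wild-type libraries. Its groups overlapped (−0.49 ± 0.29). Gm14326 had 4.95, 8.24 and 4.73 TPM in the Ts1Cje libraries, against 6.02, 7.61 and 4.98 TPM in the wild-type libraries. With all 6 libraries this was the cluster row nearest to 0 (−0.07 ± 0.26). Leaving out 1 library gave −0.35 to 0.10, with values above 0 without Ts1Cje replicate 1, Ts1Cje replicate 3 or wild-type replicate 2. Gm14322, the first row of the window, stood at −0.25 ± 0.36.

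The cluster rows share 23.3% to 86.3% of their 50-base stretches with transcripts of other genes (median 79.9%), lowest for Zfp931. The median of the coding members was 0, and 4 of them, Adrm1, Rps21, Ppdpf and Zgpat, exceeded 10%. How the authors placed reads with several alignments is not given in the sources used here, so counts of single cluster genes are uncertain. Gm14292 had 23.8, 17.5 and 22.6 TPM in the Ts1Cje libraries, against 23.4, 26.0 and 20.0 TPM in the wild-type libraries. The groups overlapped fully (−0.12 ± 0.24, and 0.01 without Ts1Cje replicate 2), and 79.1% of its stretches occur elsewhere.

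Of the 6 other noncoding rows, 3 were called lower. Slc2a4rg-ps had 5.64, 7.93 and 6.76 TPM in the Ts1Cje libraries, against 8.42, 11.8 and 10.7 TPM in the wild-type libraries, without overlap (−0.62 ± 0.20). B230312C02Rik had 0, 0 and 0 counts in the Ts1Cje libraries, against 13, 17 and 15 counts in the wild-type libraries. With a floor of 3 counts set over the Ts1Cje libraries, the level was 14.6-fold lower. The floor covers counting error in Ts1Cje only, with the wild-type counts taken as they stand. Gata5os, which overlaps Gata5 on the opposite strand, had 5, 0 and 0 counts in the Ts1Cje libraries, against 26, 48 and 75 counts in the wild-type libraries. It was detected in 1 of 3 Ts1Cje libraries, and its log2 fold change was −4.77 ± 0.83. B230312C02Rik and Gata5os met the count rule in wild-type libraries only, so they had to be lower in Ts1Cje. The other 3 overlapped between genotypes and stood near 0: 4921531C22Rik (−0.15), 9230112E08Rik (0.09) and Uckl1os (−0.06). The median of the class is the same whether B230312C02Rik is taken at its fitted value or at this floor, since it lies below the median in both.

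Of 6 pairs of neighbours that start head to head, Arfrp1 with Zgpat and Dido1 with Gid8 had the nearest values. Psma7 and Ss18l1, whose deposited starts lie 76 bases apart, stood at −0.99 ± 0.06 and −1.32 ± 0.17. Dido1 and Gid8, 118 bases apart, stood at −0.71 ± 0.08 and −0.86 ± 0.08. Ppp1r3d and Fam217b, 52 bases apart, stood at −0.97 ± 0.49 and −1.48 ± 0.23. Only the bases between the RefSeq start sites of these pairs are printed above, and these stretches differ in length and in motifs. The stretch between Psma7 and Ss18l1 is 18 bases long and holds none of the searched motifs. In the wider windows around the starts, both genes of each of these pairs had GGGCGG, so the printed stretches do not show a difference in that motif. Arfrp1 and Zgpat overlap at their starts and had −1.27 ± 0.11 and −1.23 ± 0.11. Taf4 and the noncoding 4921531C22Rik also overlap, and stood apart at −0.70 ± 0.10 and −0.15 ± 0.42. Prpf6 and Zfp512b overlap too, with −1.01 ± 0.06 and −0.17 ± 0.16. In all, 17 members overlap another row with counts.

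Values on both sides of the window's limits were as follows. Of the rows just inside, Gm14322 and Gm14325 stood at 0.840-fold and 0.712-fold. The nearest 3 rows before it that meet the count rule, Gm14418, Zfp970 and Gm14403, stood at 1.45-fold, 0.832-fold and 1.02-fold. These rows belong to the same zinc finger cluster, so the window cuts it, and the cluster values above cover only the part inside. At the other end the last members are Rgs19, Pcmtd2 and Polr3k, at 0.503-fold, 0.340-fold and 0.466-fold, and only 2 rows of chromosome 2 follow, neither of which meets the count rule. Of the 60 members, 49 held at least 10 counts in all 6 libraries, 6 reached it in libraries of both genotypes, 2 only in Ts1Cje and 3 only in wild-type. Among the 47 rows with too few counts, the most abundant was Sycp2, a protein of the meiotic chromosome axis, with 49 counts summed over Ts1Cje and 19 over wild-type.

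The 5 genes left out by name lay on both sides of 0. Lama5, a laminin chain of basement membranes, had 82.3, 78.1 and 88.8 TPM in the Ts1Cje libraries, against 58.8, 64.6 and 69.7 TPM in the wild-type libraries. It was higher in every Ts1Cje library, at 1.28-fold (0.36 ± 0.09), in the midst of members that were lower. Col20a1, a collagen gene, was also higher (1.48 ± 0.34), and Col9a3, another, overlapped between genotypes (0.48 ± 0.21). Gata5, a transcription factor of heart and endoderm, had 10, 2 and 7 counts in the Ts1Cje libraries, against 119, 271 and 314 counts in the wild-type libraries (−5.16 ± 0.53). Sox18, an endothelial transcription factor, held 2 counts in all over the Ts1Cje libraries and 388 over the wild-type libraries. The level was 188-fold lower in Ts1Cje, with an exact 95% interval of 51.8 to 1559.8 for counting error.

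Partners of the members in named complexes lie elsewhere in the genome and were not used to choose the window, so they were tested in the same edgeR fit with p-values adjusted over all tested genes. Of 106 tested partners, 14 rose and 25 fell, beside 23.3% and 20.5% of all genes, and their median log2 fold change was −0.09. The count that rose was 9 without wild-type replicate 2. Of 31 proteasome partners of Psma7 and Adrm1, 6 rose, 1 fell and 24 did not pass. Psmd8, of the proteasome cap, averaged 168 ± 8.35 CPM in Ts1Cje and 125 ± 8.06 CPM in wild-type (SD, n = 3 each; 0.43 ± 0.07, adjusted p = 0.000835). Psmb3 of the core and Psmc3 of the cap also rose (0.34 ± 0.08, adjusted p = 0.0052, and 0.27 ± 0.06, adjusted p = 0.00679). Psmb1 of the core was the 1 that fell (−0.17 ± 0.06, adjusted p = 0.0471). The partners' median was 0.09, beside −0.99 for Psma7.

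In TFIID, the complex that holds Taf4, 2 of 13 tested partners rose, 2 fell and the median was −0.12. Taf7 averaged 108 ± 14.7 CPM in Ts1Cje and 49.3 ± 12.8 CPM in wild-type (1.13 ± 0.19, adjusted p = 0.00239), and Taf1, the largest subunit, averaged 66.2 ± 5.05 CPM in Ts1Cje and 99.4 ± 5.03 CPM in wild-type (−0.59 ± 0.08, adjusted p = 0.000248). Taf8 fell (−0.39 ± 0.09) and Taf12 rose (0.32 ± 0.11). Of 17 NuA4/TIP60 partners of Mrgbp, 8 fell, 2 rose and the median was −0.19. Mbtd1, a reader of histone methylation, and Vps72, a histone chaperone, fell (−0.51 ± 0.08, adjusted p = 0.00047, and −0.48 ± 0.08, adjusted p = 0.000739), while Morf4l2 and the scaffold Trrap rose (0.42 ± 0.07 and 0.22 ± 0.06).

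Of 10 CTLH partners of Gid8, 3 rose and 3 fell, with a median of −0.07. Ypel5 and Rmnd5b rose (1.00 ± 0.13, adjusted p = 0.000215, and 0.91 ± 0.12, adjusted p = 0.000257), and Gid4, the substrate receptor, fell (−0.72 ± 0.10, adjusted p = 0.00028). Of 24 tested genes in the BAF list of Ss18l1, 8 fell and 16 did not pass, with a median of −0.15. The list covers several forms of the complex, and not every form holds Ss18l1. Brd7, Phf10 and Smarcd3 had the smallest adjusted p-values (−0.47 ± 0.06, −0.48 ± 0.07 and −0.65 ± 0.12, adjusted p = 0.000266, 0.000418 and 0.00145). Ss18, the close relative of Ss18l1, averaged 129 ± 0.548 CPM in Ts1Cje and 149 ± 3.24 CPM in wild-type (−0.21 ± 0.06, adjusted p = 0.0142). Of 12 corepressors used by zinc finger repressors, 4 fell and 1 rose, with a median of −0.14. Cbx5, which binds methylated histones, had the smallest adjusted p among those that fell (−0.39 ± 0.05, adjusted p = 0.000267), Chd4 and Cbx3 fell as well (−0.27 ± 0.06 and −0.29 ± 0.07), and Morc3, which lies in the triplicated part of chromosome 16, rose (0.34 ± 0.07, adjusted p = 0.00291). The difference between each member and its partners was not tested.

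**Figure D5:**
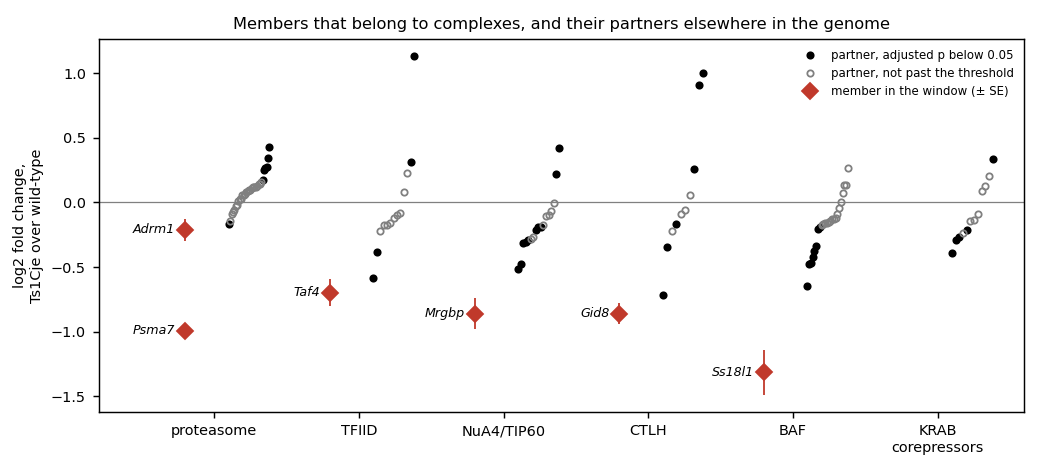
Log2 fold change (Ts1Cje over wild-type) of the members that belong to complexes (red diamonds, ± SE) and of their tested partners elsewhere in the genome, by complex; filled points passed an adjusted p of 0.05. The members, apart from Adrm1, lie at −0.70 or lower, and the partner medians lie between −0.19 and 0.09.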

How the data were processed

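Bulk poly(A) RNA-seq of 6 libraries was used, 3 per genotype. The authors deposited a table of unnormalised counts by gene and a table of TPM. The submitters' processing notes list featureCounts 1.6.3, HISAT2 2.1.0, Trimmomatic 0.38 and FastQC 0.11.7, and the mm10 build. No source used here gives their settings, the strand used for counting or the handling of multiply aligned reads, so overlapping and antisense genes are uncertain.

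Counts were analysed in R 4.3.3 with edgeR 4.0.16 (filterByExpr with a minimum count of 10 and a minimum total of 15, TMM scaling, robust quasi-likelihood test without covariates). Benjamini-Hochberg adjustment ran over the 17315 genes kept. The SE was back-calculated from the F statistic and is approximate. Deviations per library used log2 CPM with a prior count of 2. TPM served for levels, which can be compared between genes. Precision follows from 16577065 to 19010856 counts per library. Intervals and floors cover counting error only, since reads carry no molecular identifiers. Lots are not stated to be separate cultures, so the spread behind the p-values is that of these libraries and may be technical. Libraries of a genotype differed beyond counting noise, so none was counted as a repeat of another.

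Shared sequence was the percentage of a gene's 50-base stretches found in transcripts of other genes (GENCODE M21), whose coordinates were the same for all 60 members. Alternatives were DESeq2 1.42.0, limma 3.58.1 (voom, and trend on log2 TPM), other scalings and filters, a replicate block and leaving out each library.

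The members, gene lists and rules were chosen with earlier results of these data known. The genes named are, among coding members, the 8 with the highest mean TPM, the 6 with the lowest and the 6 with the highest fold change and those in listed complexes; in the cluster, the 4 with the highest TPM and the extremes of fold change; Gm models; the rows at the window's limits; the genes left out by name; and, per complex, the 3 partners with the smallest adjusted p and any that moved the other way. Other members are named to describe their groups, and 2 members that enter the counts and medians are not reported here by name. Ss18 was named after its value was seen.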

Additional observations from a re-analysis of the deposited data

How the results depend on the processing

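The median log2 fold change of the coding members, −0.86, was −0.89 with upper-quartile scaling, −0.82 with limma-trend on log2(TPM + 1) over the 42 genes it kept, −0.96 with a minimum mean log2 CPM of 1 (37 genes), −0.98 over the 34 with a mean count of at least 100, −0.99 over the 28 with a mean of at least 10 TPM and −0.83 without genes that share over 10% of their 50-base stretches. The restriction on TPM and that on shared stretches were added after the data were seen. Leaving out 1 library at a time gave −0.88 to −0.82 for the coding members and −0.69 to −0.37 for the cluster, 34 to 35 members called lower and 3 to 9 called higher. With a minimum mean log2 CPM of 1, 2 members were called higher, since fewer genes were tested. The mean of the Ts1Cje library medians, −0.85, was −0.88 with upper-quartile scaling, −0.97 at a mean count of at least 100 and −0.99 at 10 TPM, and −0.89 to −0.84 leaving out 1 library. For the cluster it was −0.65 to −0.39 leaving out 1 library. At a mean count of at least 100 only Zfp971 remains, with a median of −0.74 and a library value of −0.72. Without shared stretches no cluster row is left. Partners that fell numbered 18 to 27 and those that rose 9 to 16 leaving out 1 library.

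The lot numbers are not stated to pair the samples, and the deviations of same-numbered libraries correlated at 0.22, 0.06 and 0.20, so the block is given only here. Each library correlated best with its own number, which is a hint from the data. With the replicate block, 37 members were called lower and 6 higher, and 32 partners fell and 15 rose. With DESeq2's test, DESeq2's scaling, limma-voom, upper-quartile scaling, no filter and the replicate block, all 36 lower and all 5 higher calls of members were shared. No median changed sign under any alternative run. On log2(TPM + 1) Ptk6 stood at 1.27 and Birc7 at 1.15, since the pseudocount compresses low values. Depth limits the precision of members with few counts, such as Rbbp8nl (SE 0.72) and Birc7 (SE 0.62).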

Other observations

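Some rows of the window that hold too few counts for the rule had more counts in Ts1Cje. Oprl1, an opioid-related receptor gene, had 30 counts summed over Ts1Cje and 16 over wild-type. Gm14327 had 29 counts in Ts1Cje and 16 in wild-type, and Zfp972 had 28 in Ts1Cje and 12 in wild-type. Both lie in the zinc finger cluster, and the cluster values above do not include them. Gm14429, another cluster row with too few counts, had 1 count in Ts1Cje and 6 in wild-type. Gm7645, a processed pseudogene, had 7 counts in Ts1Cje and 19 in wild-type. These sums were not tested.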
